A study of Danio rerio with 5 samples.

Results

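The genes described here are the integrins and laminins of zebrafish, found by symbol alone: names that start with itga or itgb, or with lama, lamb or lamc and a digit. The rule gave 48 genes of the 36351 features of the single-cell files: 21 integrin alpha genes, 12 integrin beta genes, 5 laminin alpha, 5 laminin beta and 3 laminin gamma genes, and 2 genes, itgbl1 and itgb1bp1, that carry the prefix but do not encode integrin subunits. Of these 48, 40 are listed among the 17540 genes of the authors' bulk table, and 8 are not (itga2.1, itga2b, itga3a, itgae.1, itgae.2, itgam, itgb7 and lama3). The lowest um148 mean in that table is 15.03 normalized counts.

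All samples were cells sorted for a fluorescent pdgfrb reporter from larvae at 5 days post fertilization. The um148 group is 3 bulk libraries of citrine-positive cells from mutants carrying Tg(pdgfrb:citrine)s1010 and the um148 allele, which the strain label writes as an allele of pdgfb; the files do not settle which gene it disrupts. The single-cell group is 2 droplet (10x) libraries of EGFP-positive cells from Tg(pdgfrb:egfp)ncv22 larvae, with no mutant allele named. No wild-type bulk sample is in the series, so wild-type enters through the authors' own comparison. Both reporters mark every cell that drives pdgfrb regulatory sequence, or that kept fluorescent protein, and not mural cells alone. Nothing in the labels says that the libraries of a group came from separate clutches, so the spread that p-values measure may be technical. For single cells it is the spread left once overall library differences are removed, pooled over cell types of the same 2 libraries.

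Laminins are trimers of an alpha, a beta and a gamma chain that assemble into the sheet of the basement membrane, together with type IV collagen, nidogen and perlecan. Integrins are alpha and beta dimers in the plasma membrane that bind this sheet, fibrillar collagen or fibronectin outside the cell and link to talin, kindlin and the actin cytoskeleton inside it. Pericytes and vascular smooth muscle cells, the mural cells of blood vessels, sit within the vascular basement membrane and contribute to it.

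The um148 libraries held 16848358, 19440480 and 21437870 reads in genes of the authors' table. The single-cell libraries held 12121 and 10182 barcodes, of which 5653 and 7358 were kept, with median depths of 5689 and 6062 UMIs. The libraries share 30 barcodes, 11 of them among kept cells. Lists of marker genes, none of them a member, assigned 39.2% and 41.4% of kept cells to a type. Of 17 lists, 15 gave at least 20 cells in each library and entered the test. The sorted reporter is a pericyte gene, but pericyte-gated cells numbered 72 and 99, against 434 and 600 chondrocyte-gated, 327 and 492 fin-fold-gated and 322 and 481 neuron-gated cells. Each gate had at least 1 gene of its own list and 0 of another list among its 10 leading genes, such as ndufa4l2a, kcne4 and kcnj8 for pericytes and acta2, tagln and myh11a for smooth muscle. The gates select cells by these same markers, so this is no independent check of cell identity.

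Values below are UMIs summed over a type and scaled to the total UMIs of that type as counts per 1000000 (CPM), given for library 1 and then library 2. A member was called higher or lower in a type at an edgeR adjusted p under 0.05 and a log2 fold change of at least 1 in size, each type against the average of the other gated types. Because that average is taken on the log scale and some types hold almost no UMIs of a gene, a called gene can lie below the CPM of all other kept cells. This was so for 18 of the 120 higher calls, and 19 of the 120 rested on fewer than 10 UMIs in a library. Levels are compared here between cell types for 1 gene, not between genes.

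**Figure D1:**
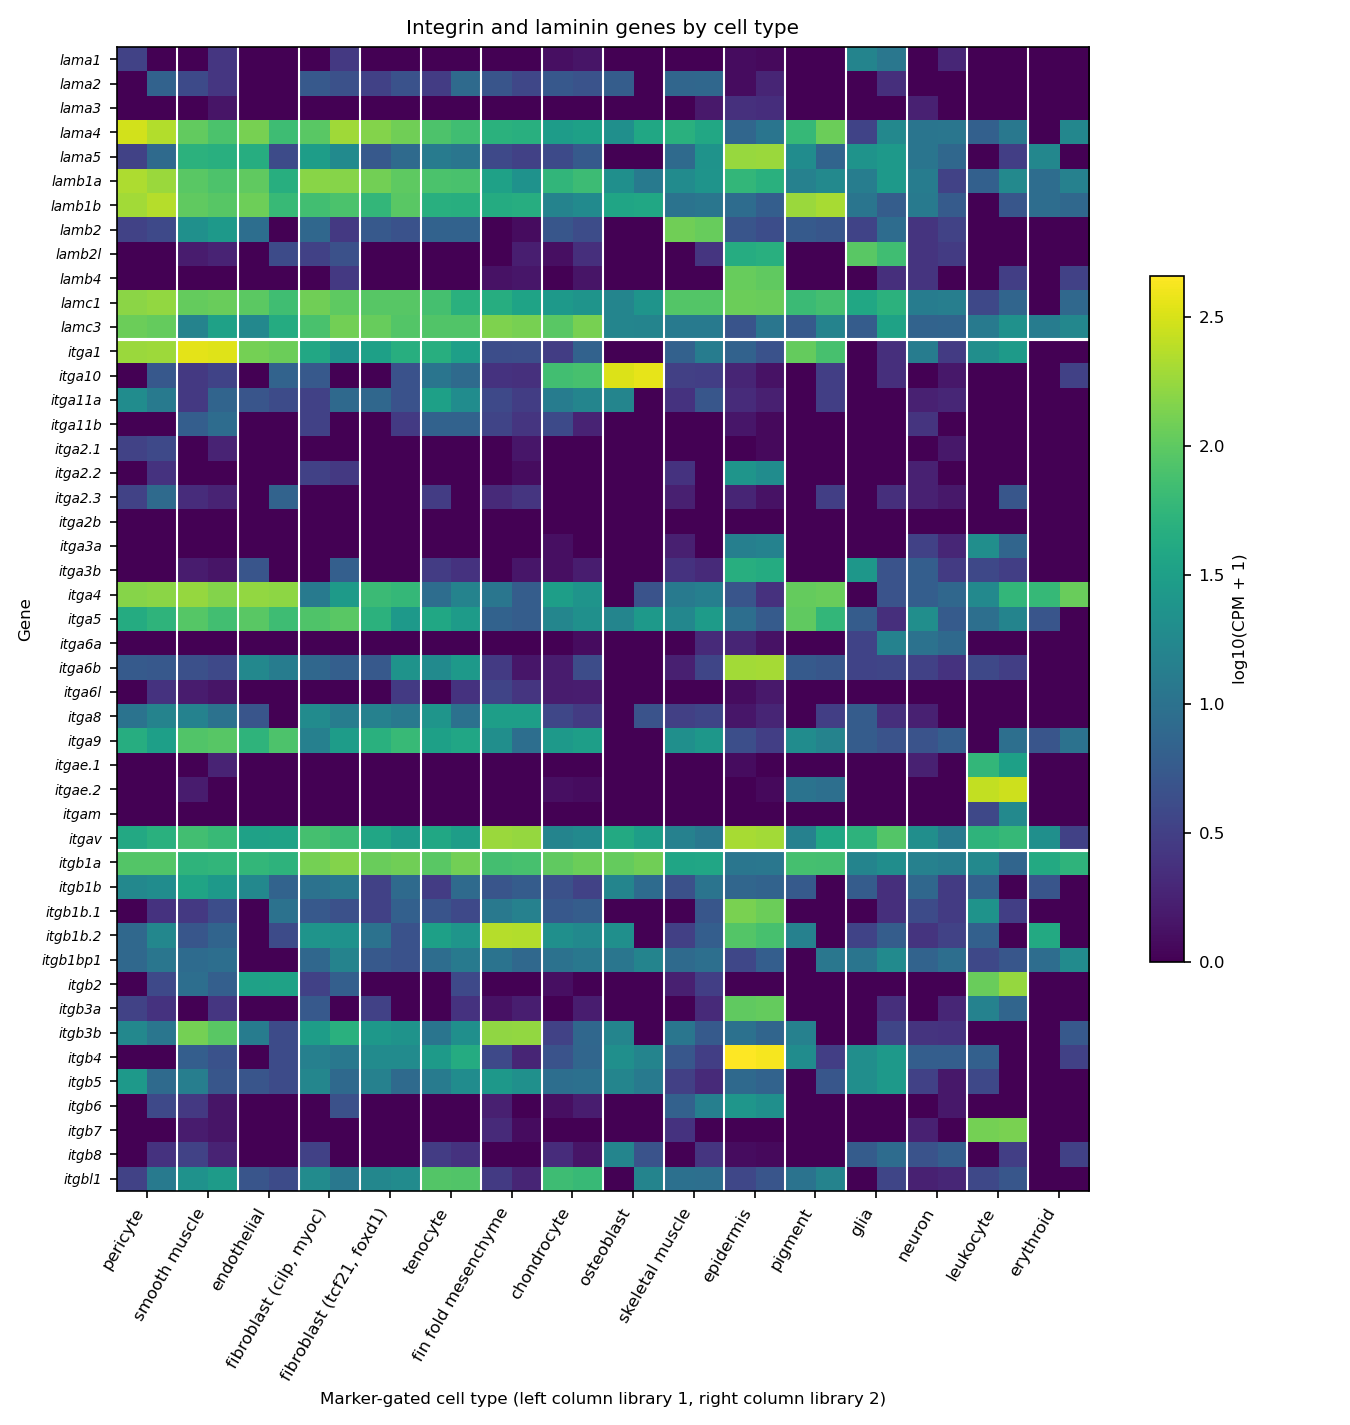
Level of 47 integrin and laminin genes in each marker-gated type as log10(CPM + 1), with 1 column per single-cell library. The columns of library 1 and library 2 resemble each other within a type, and blocks of genes stand out in epidermis (itgb4, itga6b, lamb4), leukocytes (itgae.2, itgb7, itgb2) and pericytes (lama4, lamb1a, lamb1b, lamc1).

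Of the 48 members, 47 had UMIs in kept cells of both libraries. The platelet integrin gene itga2b had 0 and 1 UMI. Among the 36 members with at least 100 UMIs in each library, 30 had their highest level in the same type in both libraries. That type was the epidermis for 11 of them, fin fold mesenchyme for 4, pericytes for 4, smooth muscle for 3, tenocytes for 2, leukocytes for 2, and 1 each for glia, osteoblasts, skeletal muscle and the cilp and myoc fibroblasts. The 4 of pericytes were all laminin chains, and the 3 of smooth muscle were all integrins.

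Laminin chains summed to 990 and 929 CPM in pericytes, the highest sum of any gated type in both libraries. The next were the cilp and myoc fibroblasts at 563 and 674 CPM, the tcf21 and foxd1 fibroblasts at 538 and 509 CPM, the epidermis at 533 and 527 CPM and smooth muscle at 496 and 474 CPM. The ranges of these 4 lie close together, whereas both pericyte values lie above all of them. The 19 and 28 endothelial-gated cells had 518 and 289.95 CPM. The lowest sums were those of neurons (66.6 and 48.5 CPM), erythroid cells (48.0 and 61.7 CPM) and leukocytes (25.3 and 63.2 CPM). Integrin subunits had another order: the epidermis had 1344 and 1246 CPM, smooth muscle 1049 and 936 CPM, leukocytes 753 and 834 CPM, fin fold mesenchyme 773 and 746 CPM and pericytes 648 and 668 CPM. Neurons were lowest, at 123 and 76.1 CPM.

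In pericytes 12 of 35 tested members were higher and 1 was lower. Of all 11419 genes tested, 9.46% were called higher in pericytes and 0.867% lower. The median log2 fold change was 0.61 over the members and 0.08 over all genes. The 12 hold 5 laminin chains and 7 integrin subunits: lama4, lamb1a, lamb1b, lamc1 and lamc3, and itga1, itga4, itga5, itga8, itga9, itga11a and itgb1b.

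The laminin chains gave the clearest order. The gene lama4, whose mammalian counterpart is the typical alpha chain of vascular basement membranes, stood at 302 and 225 CPM in pericytes against 56.3 and 57.8 CPM in all other kept cells. Its log2 fold change was 2.70 ± 0.22 (SE), with an edgeR adjusted p of 1.18e-09. Both pericyte values lie above every other gated type, the nearest being the cilp and myoc fibroblasts at 95 and 192 CPM and the tcf21 and foxd1 fibroblasts at 145 and 121 CPM. The beta chain gene lamb1a had 216 and 183 CPM in pericytes against 70.7 and 65.4 CPM in other cells, a log2 fold change of 2.37 ± 0.20. It too was separate from its neighbour, the cilp and myoc fibroblasts, at 154 and 150 CPM. Its paralog lamb1b had 193 and 229 CPM in pericytes against 39.7 and 41.4 CPM in other cells, a log2 fold change of 2.97 ± 0.17. Here pericytes could not be separated from pigment cells, which had 181 and 204 CPM.

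The gamma chains differed from each other. The gene lamc1, which encodes the common gamma chain, had 158 and 170 CPM in pericytes against 80.6 and 79.2 CPM in other cells, a log2 fold change of 1.86 ± 0.17. Both values lie above the cilp and myoc fibroblasts (120 and 98.5 CPM), the epidermis (114 and 112 CPM) and smooth muscle (108 and 111 CPM). For lamc3 the level was 114 and 107 CPM in pericytes, with a log2 fold change of 1.73 ± 0.26. That level overlaps those of chondrocytes (93.3 and 128 CPM), the cilp and myoc fibroblasts (76.9 and 122 CPM) and the tcf21 and foxd1 fibroblasts (109 and 88.1 CPM), and fin fold mesenchyme was above it at 140 and 128 CPM.

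**Figure D2:**
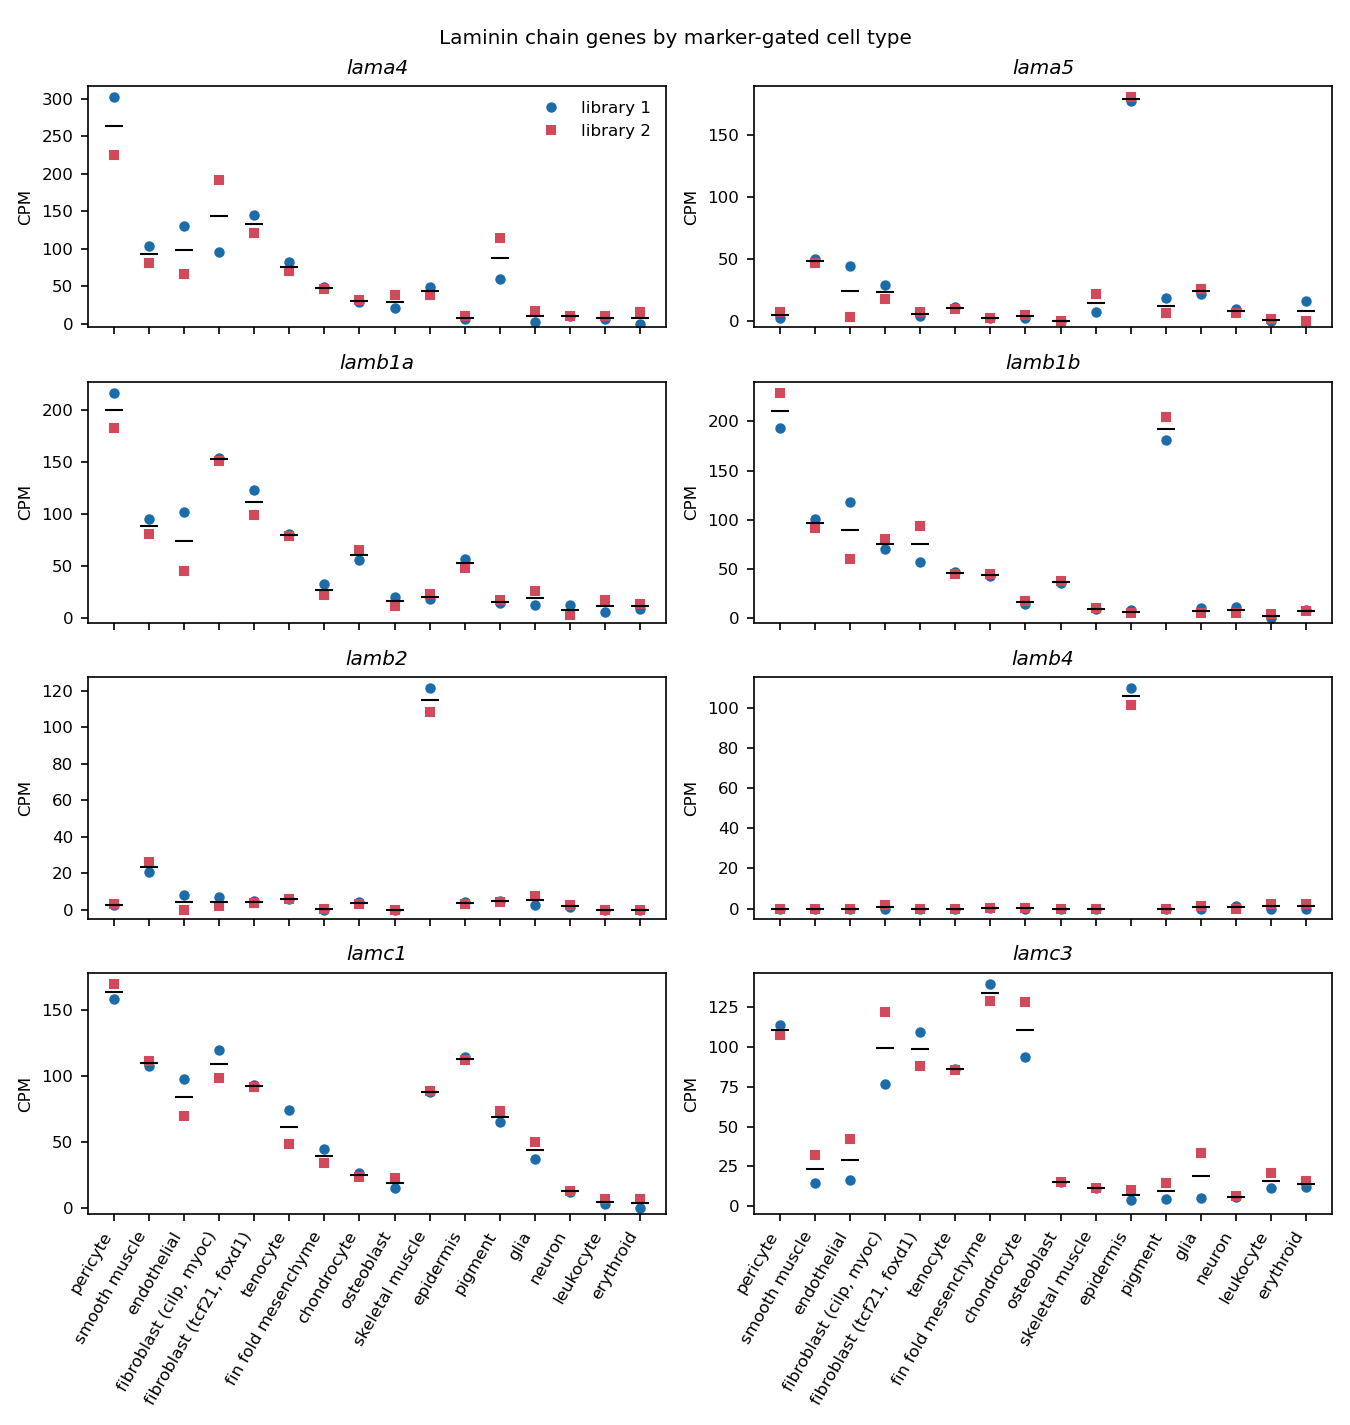
CPM of 8 laminin chain genes in each marker-gated type, with a circle for library 1, a square for library 2 and a dash for their mean. Pericytes hold the highest mean of lama4 (302 and 225 CPM), lamb1a, lamb1b and lamc1, while lama5 and lamb4 peak in the epidermis and lamb2 in skeletal muscle.

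Among integrins, itga1, which encodes a collagen-binding alpha subunit, had 179 and 186 CPM in pericytes against 45.8 and 44.1 CPM in other cells. Its log2 fold change was 4.40 ± 0.30, with an edgeR adjusted p of 1.4e-10. The gene itga4, for a subunit that binds fibronectin and VCAM, had 151 and 155 CPM in pericytes against 31.7 and 29.8 CPM in other cells (log2 fold change 2.87 ± 0.27). Pericytes were not set apart from smooth muscle by itga4, which had 174 and 145 CPM there. The 19 and 28 endothelial-gated cells, too few for the test, had 167 and 160 CPM. The fibronectin receptor gene itga5 had 41.8 and 52.2 CPM in pericytes and a log2 fold change of 1.28 ± 0.34. The calls of itga11a (8 UMIs in each library), itga8 (4 and 10 UMIs) and itgb1b (7 and 13 UMIs) rest on few molecules. The beta partner of most of these alpha subunits, itgb1a, had 88.3 and 87.0 CPM and was not called.

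The lower gene was itgb4, the beta subunit of epithelial hemidesmosomes. It had 0 UMIs in pericytes of both libraries against 118 and 102 CPM in other cells. With a floor of 3 counts per library, pericytes were at least 17.0-fold and 23.5-fold lower. The call was absent when the gate asked for 1 more marker, which left fewer cells and fewer types in the average. Low itgb4 was not particular to pericytes. Smooth muscle had 5.27 and 3.69 CPM and fin fold mesenchyme 2.90 and 0.897 CPM. Tenocytes had 27.4 and 42.1 CPM and the epidermis, part of the other cells above, 456 and 417 CPM. Markers of the epidermis summed to 381 and 319 CPM in pericyte-gated cells and to 43257 and 45002 CPM in epidermis-gated cells.

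Of 16 tested basement membrane partners, 10 were higher in pericytes and 0 lower, against 9.46% of all genes higher, with a median log2 fold change of 1.46. The genes hspg2, agrn, col4a5, fn1b, tnc and dag1 were not called in pericytes. Such calls were not particular to pericytes. Of the same 16, 11 were higher in the cilp and myoc fibroblasts (10.6% of all genes). The tcf21 and foxd1 fibroblasts had 10 higher (8.91%) and smooth muscle had 8 (15.1%). Both fibroblast types had nid1b and col4a1 among their higher calls. The nidogen gene nid1b, whose product bridges laminin and type IV collagen, had 428 and 444 CPM in pericytes against 84.3 and 89.4 CPM in other cells (log2 fold change 3.08 ± 0.18). The type IV collagen gene col4a1 had 727 and 678 CPM against 231 and 223 CPM (2.65 ± 0.24), and col15a1b had 51.1 and 47.8 CPM against 9.31 and 10.9 CPM (4.77 ± 0.39). Of 30 tested genes for the cytoplasmic side of integrin adhesions, 9 were called higher in pericytes (9.46% of all genes), among them fermt2, which encodes a kindlin, at 170 and 162 CPM against 53.2 and 53.0 CPM.

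Smooth muscle had 15 members higher and 0 lower, where 15.1% of all genes were called higher and 1.35% lower. Leaving out cells that met a second marker list was not in the planned gate and was decided after member values had been seen. With those cells kept, 27 members were higher. The 15 are 8 integrin subunits, itgbl1 and 6 laminin chains. With itga1 the level was 351 and 335 CPM against 35.7 and 34.2 CPM in other cells, the highest of any gated type, with a log2 fold change of 5.72 ± 0.21. The gene itgb3b, for a beta subunit that binds fibronectin and vitronectin together with the itgav product, had 125 and 94.4 CPM against 27.6 and 29.4 CPM (4.16 ± 0.26). The gene itga9 had 84.9 and 91.5 CPM against 21.8 and 19.98 CPM (3.31 ± 0.23). The gene lamb2 had 20.5 and 25.9 CPM from 35 and 63 UMIs, below skeletal muscle. The call of lama5 had a log2 fold change of 2.94 ± 0.28. It came at 50.3 and 47.2 CPM in smooth muscle against 55.2 and 49.2 CPM in other cells. That pool holds the epidermis and the ungated cells, the latter at 57.0 and 49.6 CPM. The epidermal gene itgb4 was at 5.27 and 3.69 CPM in the same smooth muscle cells, and markers of the epidermis summed to 747 and 801 CPM. The part of epidermal RNA in the lama5 level was not tested. The leukocyte gene itgb2 had 14 and 13 UMIs.

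The members were then compared directly between pericyte-gated and smooth-muscle-gated cells. Whether the smooth-muscle-gated cells came from blood vessels or from other organs was not tested. Of 35 members, 2 were higher in pericytes and 6 were lower. Over all genes 4.19% were higher and 6.19% lower. The 2 higher were laminin chains. In pericytes lamc3 had 114 and 107 CPM against 14.6 and 32.4 CPM in smooth muscle (log2 fold change 1.88 ± 0.34, edgeR adjusted p 0.000349). In pericytes lama4 had 302 and 225 CPM against 104 and 80.4 CPM in smooth muscle (1.19 ± 0.30, edgeR adjusted p 0.00884). For both genes the libraries of the pair do not overlap. With 1 more marker in the gates, 4 members were higher.

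The 6 lower in pericytes include the alpha chain lama5, at 2.32 and 7.25 CPM in pericytes against 50.3 and 47.2 CPM in smooth muscle (log2 fold change -3.49 ± 0.55). Pericytes and smooth muscle thus differed in both directions for laminin alpha chains, with lama5 resting on 1 and 5 UMIs in pericytes. The beta subunit gene itgb3b had 16.3 and 10.1 CPM in pericytes against 125 and 94.4 CPM in smooth muscle (-3.42 ± 0.47). The beta chain lamb2 had 2.32 and 2.90 CPM against 20.5 and 25.9 CPM (-3.40 ± 0.55), from 1 and 2 UMIs in pericytes. The others were itgbl1 (-1.97 ± 0.48), itga9 (-1.61 ± 0.34) and itga1 (-1.23 ± 0.29, 179 and 186 CPM against 351 and 335 CPM). When cells that met a second marker list were kept, 12 members were lower in pericytes.

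**Figure D3:**
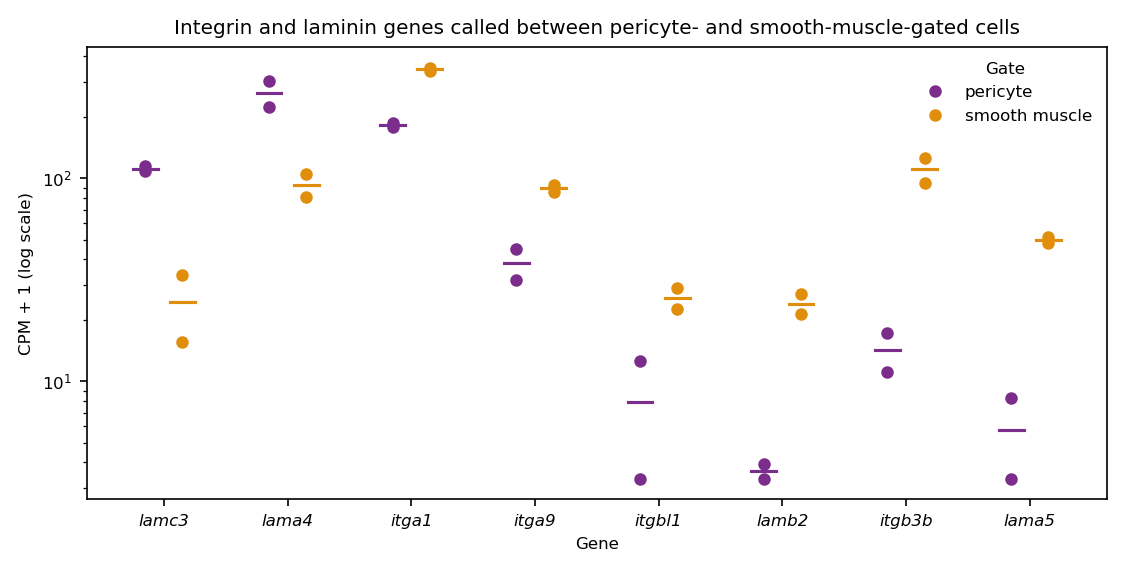
CPM + 1 on a log scale for the 8 members called between the pericyte and smooth muscle gates. Pericytes are on the left of each pair and smooth muscle on the right, with a point per library and a line at the mean. For each gene both points of one gate lie above both points of the other, from lamc3 (114 and 107 CPM in pericytes) to lama5 (50.3 and 47.2 CPM in smooth muscle).

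The partner genes also differed between pericytes and smooth muscle. Of 16 basement membrane partners, 4 were higher in pericytes than in smooth muscle (col15a1b, col18a1b, nid1a and nid1b) and 4 were lower (fn1b, col4a5, col4a6 and tnc). In pericytes nid1b had 428 and 444 CPM against 72.0 and 67.7 CPM in smooth muscle, and the fibronectin gene fn1b had 69.7 and 98.6 CPM against 582 and 705 CPM. Of the 30 adhesion effectors, 0 were higher and 14 were lower in pericytes. The talin gene tln1 had 284 and 307 CPM in pericytes against 543 and 501 CPM in smooth muscle (log2 fold change -1.14 ± 0.21), and actn1, for alpha-actinin, had 53.5 and 53.6 CPM against 400 and 351 CPM (-3.12 ± 0.27). The vinculin gene vcla had 0 UMIs in pericytes of both libraries and 235 and 229 CPM in smooth muscle.

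The epidermis had 14 members higher and 6 lower, where 16.3% of all genes were higher and 5.32% lower. Higher calls made up 75.4% of all epidermal calls, and 64.9% with RLE scaling, the size factors of DESeq2. The laminin receptor of hemidesmosomes was present as both subunits: itgb4 had 456 and 417 CPM in the epidermis against 82.9 and 70.2 CPM in other cells (log2 fold change 6.76 ± 0.16), and itga6b had 194 and 202 CPM against 38.4 and 34.9 CPM (6.89 ± 0.19). Of the laminin chains, lama5 had 178 and 181 CPM in the epidermis (5.23 ± 0.19). The level of lamb4 there was 109.7 and 102 CPM against 15.4 and 12.6 CPM in other cells (8.93 ± 0.27). The other cells include ungated cells, so the CPM ratio is smaller than the fitted change between gated types. The RGD-binding subunit gene itgav had 206 and 193 CPM, and itgb3a, itga2.2, lamb2l, itga3b, itgb6, itgb1b.1, itgb1b.2 and lamc1 were also called higher. The call of lamb2 came at 4.08 and 3.29 CPM in the epidermis against 10.6 and 9.78 CPM in other cells, and its log2 ratio to the other gated types within library 2 alone was -0.00866. The 6 lower were itga4, itgb1a, lama4, lamc3, lamb1b and itga5, of which itgb1a had 9.98 and 10.2 CPM in the epidermis against 63.5 and 69.2 CPM in other cells. Of these 6, all but itgb1a were called higher in pericytes.

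In osteoblasts itga10 had 333 and 365 CPM against 9.43 and 10.3 CPM in other cells (log2 fold change 7.62 ± 0.26), and in chondrocytes it had 70.1 and 75.6 CPM against 6.21 and 6.70 CPM (5.56 ± 0.21). In mammals this subunit is known from cartilage as a type II collagen receptor. Osteoblasts had 2 members higher, itga10 and itgb1a, and 1 lower, where 5.70% of all genes were higher and 1.70% lower. Chondrocytes had 10 higher and 1 lower (background 12.9% and 1.67%). Of the 10, itgb1b.1, itgb1b.2 and lamb1a lay below the CPM of other kept cells in both libraries. Tenocytes, the tendon cells, had 13 higher and 0 lower (9.64% and 0.736%). Of the 13, itga6b, itga1, itga10 and itgb4 lay below the CPM of other kept cells in both libraries, and itga6b, itga10, itga8 and itgb5 rested on few UMIs. In tenocytes itga11a had 31.3 and 18.9 CPM against 5.47 and 6.05 CPM in other cells (3.86 ± 0.57), and itgbl1, for a secreted integrin-beta-like protein, had 88.1 and 85.7 CPM against 20.7 and 21.2 CPM (4.09 ± 0.28). In library 2 itga11a in tenocytes lay close to chondrocytes, at 15.2 CPM.

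Fin fold mesenchyme had 8 members higher and 2 lower (background 15.2% and 4.47%). Its itgb3b level was 164 and 170 CPM against 22.9 and 21.6 CPM in other cells (log2 fold change 4.95 ± 0.22), above that of smooth muscle in both libraries. The level of itgb1b.2 was 231 and 224 CPM against 33.2 and 31.4 CPM (4.86 ± 0.21), that of itgav 179 and 173 CPM and that of itga8, for a receptor of nephronectin, 29.7 and 30.04 CPM against 7.32 and 5.66 CPM (3.99 ± 0.30). The genes itgb1b, itgb1b.1 and itgb1b.2 share a base symbol, as do itga2.1, itga2.2 and itga2.3, and itgae.1 and itgae.2. Their sequences were not compared, and whether UMIs were split between such genes was not tested. The itgb1b genes had their highest levels in different types. The level of itgb1b.1 was highest in the epidermis at 133 and 113 CPM and that of itgb1b in smooth muscle at 34.5 and 26.7 CPM. The fin fold call of itgb1b.1 came at 10.9 and 13.9 CPM, below the 37.3 and 30.1 CPM of other kept cells. Both itgae.1 and itgae.2 were highest in leukocytes. Of itga2.1, itga2.2 and itga2.3, itga2.2 was highest in the epidermis, from 103 and 107 UMIs. The others were highest in pericytes from few molecules, 1 and 2 UMIs of itga2.1 and 1 and 5 UMIs of itga2.3.

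Skeletal muscle had 6 members higher and 1 lower (background 16.1% and 2.30%). The gene lamb2, whose product is found at muscle attachments and synapses, had 121 and 108 CPM in skeletal muscle against 6.70 and 6.19 CPM in other cells (log2 fold change 6.70 ± 0.20). That is the highest lamb2 level of any gated type. The other laminin chain genes called were lamc1, at 87.4 and 88.2 CPM, and lama5, at 7.23 and 22.1 CPM against 56.5 and 49.99 CPM in other cells. The lama5 level thus lay below that of other cells in both libraries, although the fit called it higher than the average of the other gated types. The leukocyte gene itgb2 was called from 1 and 4 UMIs. The muscle laminin gene lama2 had 6.503 and 6.83 CPM in skeletal muscle and was too low for the test.

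The cilp and myoc fibroblasts had 12 members higher and 0 lower (background 10.6% and 1.24%), and the tcf21 and foxd1 fibroblasts had 11 higher and 0 lower (8.91% and 0.674%). Both share lama4, lamb1a, lamb1b, lamc1 and lamc3 with pericytes among their higher calls. The cilp and myoc fibroblasts also had itgb1a at 127 and 147 CPM, the highest of any gated type in both libraries, and itga5 at 83.6 and 94.9 CPM. In the tcf21 and foxd1 fibroblasts itga9 had 47.7 and 60.6 CPM. Of the cilp and myoc calls, itgb2 (1 and 3 UMIs) and itga8 (8 and 7 UMIs) rested on few UMIs. Their itga1 and lama5 levels lay below those of other kept cells in both libraries. Of the tcf21 and foxd1 calls, itga6b (2 and 12 UMIs) and itga8 (6 and 6 UMIs) rested on few UMIs. There itga6b also lay below other kept cells in both libraries.

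Leukocytes had 6 of 35 members higher and 6 lower, or 17.1% each, against 17.2% and 14.6% of all genes. The higher calls of itgb3a (5 and 3 UMIs) and itgb1b.1 (8 and 1 UMIs) lay below the CPM of other kept cells in both libraries. The others were itgae.2, itgb7, itgb2 and itgae.1. The level of itgae.2 was 258 and 284 CPM in leukocytes against 1.24 and 0.812 CPM in other cells (log2 fold change 10.77 ± 0.31), and that of itgb7, its partner subunit in mammals, was 126 and 133 CPM against 0.421 and 0.265 CPM (9.74 ± 0.51). The common leukocyte beta subunit gene itgb2 had 112 and 171 CPM. The endothelial gate held itgb2 at 32.6 and 33.2 CPM. The lower calls in leukocytes were lama4, lamb1a, lamb1b, lamc1, itgb1a and itgb3b, the last with 0 UMIs in both libraries.

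Neurons had 0 members higher and 10 lower, where 28.3% of all genes were higher and 15.5% lower. Without the filter on low counts 4 were higher. Glia had 4 higher and 8 lower (background 16.0% and 8.37%), led by lamb2l at 93.8 and 69.2 CPM against 13.3 and 13.7 CPM in other cells (log2 fold change 6.96 ± 0.42). The other higher calls in glia rested on few UMIs: itga3b on 10 and 3, and itgb4 and itgb5 on 8 and 20 each. Of these, itgb4 lay below the CPM of other kept cells in both libraries. The gene lama1 also had its highest level in glia, at 14.8 and 10.3 CPM from 6 and 8 UMIs. Erythroid cells had 1 higher, itga4, at 60.1 and 112 CPM, and 7 lower (11.0% and 10.6%). Pigment cells had 6 higher and 2 lower (12.8% and 5.95%), among them lamb1b, at 181 and 204 CPM, and itga4, at 107 and 113 CPM. The pigment call of itgae.2 rested on 2 and 4 UMIs.

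The authors' deposited table gives the um148 comparison. It called 5 of the 39 members with an adjusted p, all 5 higher in um148 and 0 lower, where 6.18% of all 16853 genes were higher and 5.13% lower. The 5 are lama2, lama1, itga11b, itga8 and itgb1b.1. At an adjusted p under 0.01, where 5.84% of all genes were called, 3 members were called (lama2, itga11b and itga8). The other 34 were not called at 0.05. Among genes with an adjusted p, the authors' deposited table gave an unadjusted p under 0.05 for 9 of 39 members and 4210 of 16853 genes. The share of members was thus no larger than that of all genes. The median log2 fold change in the authors' deposited table was 0.07 over the members and 0.02 over all genes. In bulk libraries a different number of cells of a type and a different amount of RNA per cell cannot be told apart. The wild-type means below are those the authors' fold changes imply, without an SD.

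The gene lama2 (LL0000013505), for the alpha chain of muscle basement membranes whose loss causes muscular dystrophy in humans and zebrafish, had 4096, 4954 and 1596 normalized counts in um148 libraries 1, 2 and 3, against an implied wild-type mean of 151.9. All 3 libraries were above that mean, by 27.0, 32.6 and 10.5-fold, and library 3 was the lowest. The log2 fold change in the authors' deposited table was 4.55 ± 0.48 (SE from the statistic) with an adjusted p of 4.80e-18, rank 17 of 17540 genes. In single cells lama2 had 126 and 149 UMIs in all kept cells. Its level was highest in skeletal muscle in library 1 (6.503 CPM) and in tenocytes in library 2 (7.26 CPM), so no gated type held it at a high level.

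Markers of skeletal muscle were also uneven between these bulk libraries. Over the 8 of 9 listed muscle markers, summed CPM was 631, 1005 and 143 in um148 libraries 1, 2 and 3 and 290 in implied wild-type. The authors' deposited table called 1 of the 8 higher and 0 lower, and the median log2 fold change was 0.71. The libraries had the same order for muscle markers as for lama2. In library 3 the muscle markers lay below the implied wild-type sum, and lama2 was 10.5-fold above its implied mean. The part of muscle cells in the lama2 values was not tested.

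The collagen-binding subunit gene itga11b (LL0000012919) had 448.9, 327.5 and 315.9 normalized counts in um148 libraries, against an implied wild-type mean of 45.9. The 3 libraries lie close together and all lie far above that mean, with a log2 fold change of 2.99 ± 0.37 and an adjusted p of 2.97e-13 in the authors' deposited table. Its paralog itga11a had 1407, 1387 and 1484 normalized counts in um148 against an implied 1313 in wild-type, and was not called (0.12 ± 0.26). In single cells itga11b had 72 and 121 UMIs, with 5.27 and 7.80 CPM in smooth muscle and 5.87 and 5.81 CPM in tenocytes.

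The gene itga8 (LL0000012931) had 1470, 1191 and 982 normalized counts in um148 libraries, against an implied wild-type mean of 301. All 3 were above that mean, with a log2 fold change of 2.01 ± 0.33 and an adjusted p of 2.14e-07 in the authors' deposited table. Fin fold mesenchyme held the highest itga8 level in single cells. The gene was also called higher in pericytes, smooth muscle, tenocytes and both fibroblast types. Fin fold markers summed to 1039, 1342 and 903 CPM in um148 against 1493 in implied wild-type. The part of any cell type in the itga8 values was not tested.

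The other 2 calls were less even between libraries. The gene lama1 (LL0000013504), for an alpha chain of early basement membranes, had 843, 607 and 192 normalized counts in um148 libraries against an implied wild-type mean of 170.6. Library 3 was 1.13-fold that mean, and the log2 fold change in the authors' deposited table was 1.68 ± 0.50 with an adjusted p of 0.012. The gene itgb1b.1 (LL0000012939) had 791, 207 and 659 normalized counts in um148 against an implied wild-type mean of 225. Library 2 was below that mean, and the log2 fold change in the authors' deposited table was 1.29 ± 0.45 with an adjusted p of 0.0378. Epidermal markers, whose gate held the highest itgb1b.1 level in single cells, summed to 3641, 1794 and 1968 CPM in um148 over 9 of 9 listed genes, against 1468 in implied wild-type. The authors' deposited table called 0 of the 9 higher and 1 lower, and the part of epidermal cells in the itgb1b.1 values was not tested.

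**Figure D4:**
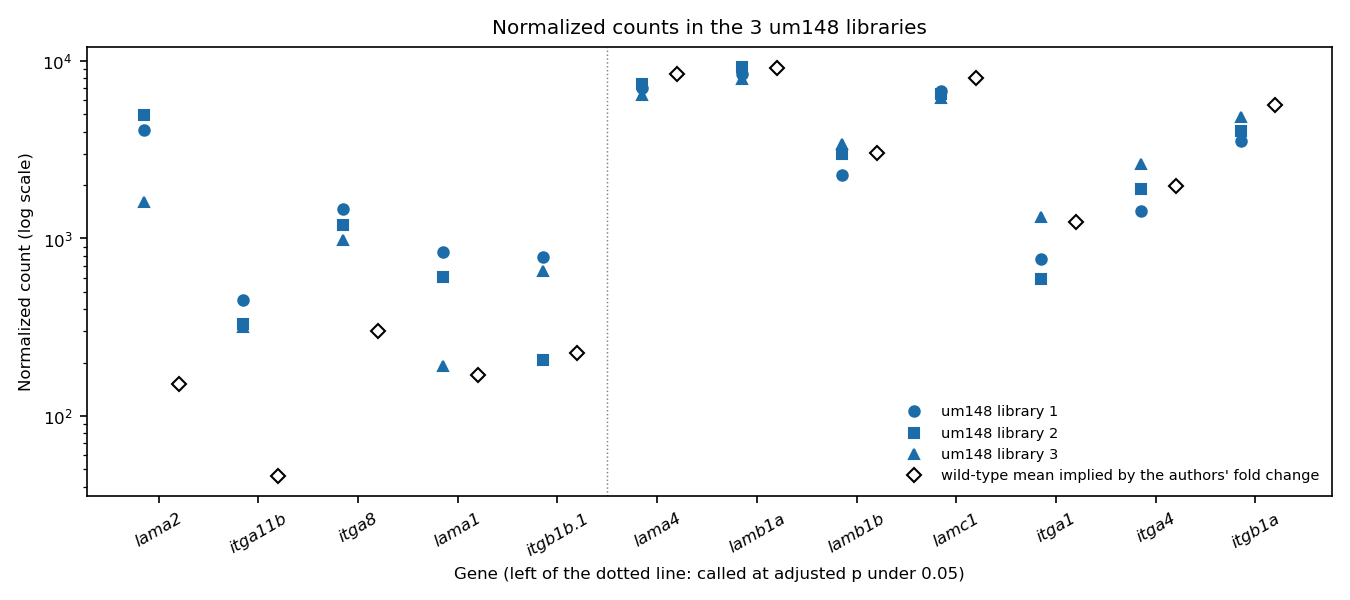
Normalized counts on a log scale for the 5 called members (left of the dotted line) and 7 others, with filled symbols for the 3 um148 libraries on the left of each pair and an open diamond for the wild-type mean implied by the authors' fold change on the right. The um148 values of lama2 (4096, 4954 and 1596) lie far above the diamond at 151.9, whereas those of lamb1a and lamb1b lie around theirs.

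The laminin chains highest in pericytes were not called in these bulk libraries of all sorted cells. In single cells, pericyte-gated cells held 130 of 2797 and 155 of 3843 lama4 UMIs of all kept cells. The bulk values therefore do not show the level of these chains within pericytes. In um148 lama4 had 7013, 7394 and 6451 normalized counts, a mean of 6953 ± 474 (SD, n = 3), against an implied wild-type mean of 8474, with a log2 fold change of -0.29 ± 0.24 in the authors' deposited table. All 3 libraries were below that mean. The gene lamb1a had 8492, 9198 and 7870 normalized counts against 9145 (-0.10 ± 0.24), and lamb1b had 2288, 2996 and 3392 against 3029 (-0.07 ± 0.29), so wild-type lay within the range of the um148 libraries for both. For lamc1 the counts were 6755, 6497 and 6170 against 8002 (-0.31 ± 0.22), and for lamc3 8635, 8638 and 9983 against 7304 (0.31 ± 0.26).

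Among the integrins called higher in pericytes, itga8 was called in the authors' deposited table, as given above, and itga1 and itga4 were not. The gene itga1 had 766, 589 and 1321 normalized counts in um148 against an implied wild-type mean of 1241 (log2 fold change -0.48 ± 0.34 in the authors' deposited table), and library 3 was above that mean. For itga4 the counts were 1422, 1888 and 2614 against 1969 (0.00 ± 0.37), and for itgb1a 3520, 4009 and 4839 against 5641 (-0.45 ± 0.24). Of the pericyte markers, the authors' deposited table called 4 of 9 lower and 0 higher, and their summed CPM was 1293, 1333 and 1698 in um148 against 2181 in implied wild-type. The sorted gene itself, pdgfrb, had 4852, 5357 and 3845 normalized counts in um148 against 10802 in implied wild-type (-1.21 ± 0.30). The part of these differences in the member values was not tested.

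**Figure D5:**
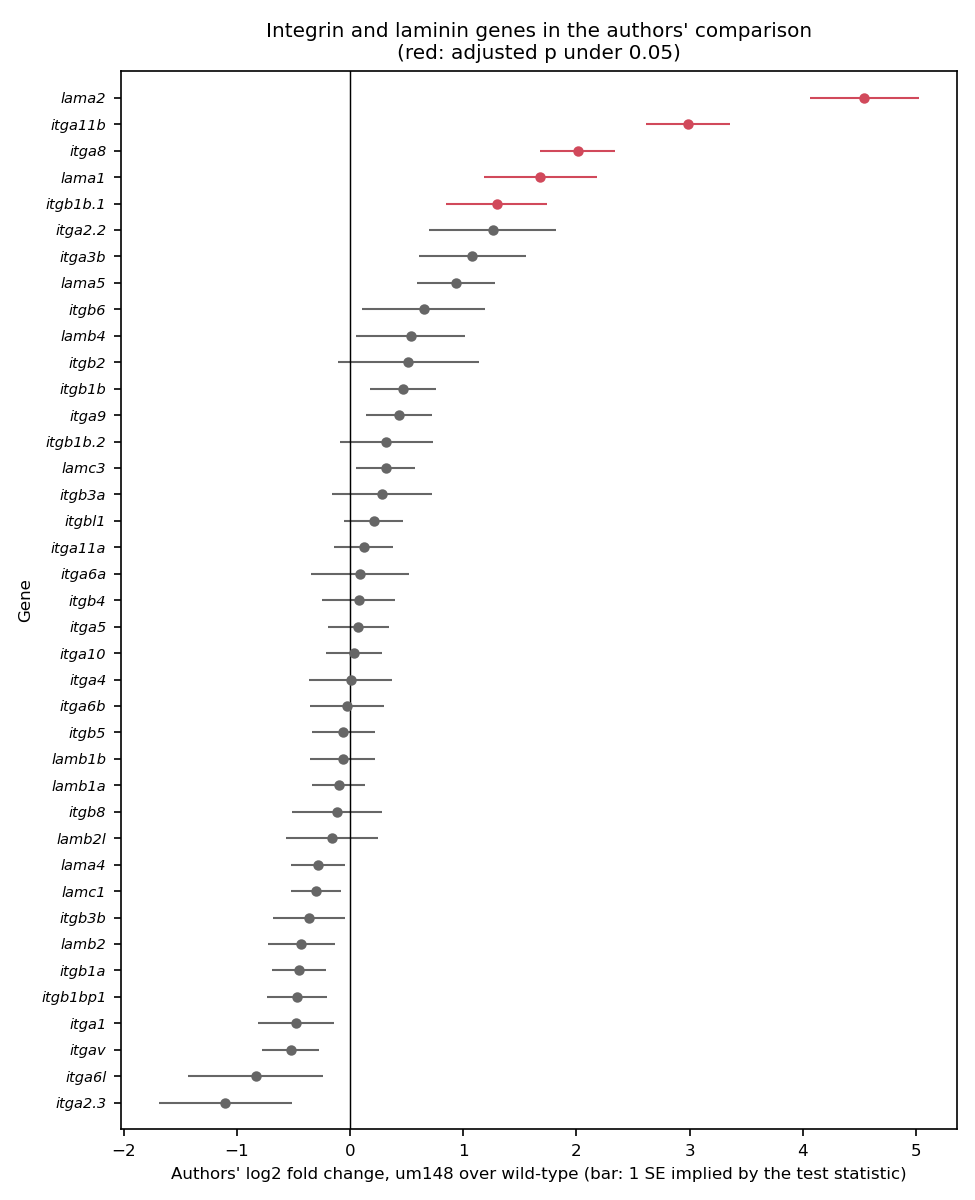
Log2 fold change of 39 members in the authors' deposited table, um148 over wild-type, with bars of 1 SE taken from the test statistic and red for an adjusted p under 0.05. The 5 called members lie between 1.29 and 4.55, and the other 34 between -1.10 and 1.26.

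Closest to the threshold among members not called was lama5, with 1613, 700 and 895 normalized counts in um148 against 558 in implied wild-type, a log2 fold change of 0.94 ± 0.35 and an adjusted p of 0.0568 in the authors' deposited table. All 3 libraries were above the implied mean. Of the epidermal members, itgb4 had 1094, 679 and 956 normalized counts against 863 (0.07 ± 0.32), and itga6b had 358, 207 and 321 against 300.2 (-0.02 ± 0.33). The integrin gene itgav had 1940, 1531 and 1476 against 2369 (-0.52 ± 0.25, adjusted p 0.17 in the authors' deposited table), with all 3 libraries lower. The immune gene itgb2 had 53.5, 40.9 and 34.7 normalized counts and no adjusted p.

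Of the partner genes, the authors' deposited table called 2 of 20 higher in um148 and 0 lower, where 6.18% of all genes were higher and 5.13% lower. These were col4a2, with 1192, 744 and 1168 normalized counts against 433 in implied wild-type (log2 fold change 1.26 ± 0.43), and dag1, the gene of the laminin receptor dystroglycan, with 3576, 4121 and 4065 against 1840 (1.09 ± 0.24). Its partner chain col4a1 had 11068, 8887 and 15386 against 13453 and was not called. Of 28 listed adhesion effectors, 3 were higher (actn4, tln2b and vcla) and 1 was lower (parvb), against the same shares of all genes. The um148 libraries varied in the members as in other genes: the median SD of log2(CPM + 1) was 0.350 over the members and 0.344 over all genes. The most even member was itga10 (SD 0.0356) and the least even was lama1 (SD 1.20).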

How the data were processed

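Bulk and single-cell RNA from FACS-sorted reporter-positive cells was analysed. Per the labels' protocols, bulk libraries were oligo-dT primed. The submitters' processing notes name CASAVA 1.8.2, STAR, RSEM, DESeq2, Cell Ranger 3.1.0 and build GRCz11, with no role given. The authors' deposited bulk table holds a normalized signal per library (all values within 0.01 of whole multiples of 1 step), a log2 fold change, its linear ratio (fold), a test statistic (a score), p-values, adjusted p-values and their −log10. Taken as um148 over wild-type, the fold changes imply a wild-type total of 20284258, near the mean um148 total of 19212955; the other direction implies 91949403. Wild-type values per library (3 columns) match no sample here and stayed unused. Standard errors take the statistic as the squared ratio of log2 fold change to SE.

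The deposited matrices hold UMI counts per the file headers. Barcodes with under 500 genes (2210 and 1924) or over 10% mitochondrial UMIs (3976 and 407) were removed. The automatic doublet threshold marked 0, so the highest scores were removed at 0.8% per 1000 barcodes (282 and 493; scanpy 1.11.5). A cell was gated where its number of detected markers of a list, less the library's median number, was higher than for every other list and at least 3 and 40% of the list. The subtraction was a departure from the planned gate. Cells that also met a second list (462 and 587) were left out, also a departure, which was decided after member values had been seen. Gates are rebuilt here and may differ from the study's types.

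UMIs were summed per library and type. The edgeR 4.0.16 quasi-likelihood test (TMM, filterByExpr, library as a term, 15 types, 14 residual degrees of freedom) covered 11419 genes with Benjamini-Hochberg adjustment. It was also run on simulated data in which all types were alike except for genes changed in pericytes. That run does not cover types as unlike as the real ones. The library term pairs the types, since all types of a library come from the same sorted cells. Each single-cell SE was taken from the test, as the size of the log2 fold change over the square root of the F statistic. It is not an SE fitted by edgeR. DESeq2 1.42.0 was an alternative.

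The members and lists were chosen with earlier results of these data known. Named are called members (per type up to 6 higher and 3 lower), a fixed set of subunits and chains, and those called between pericytes and smooth muscle. The gene itga7 is not among the features matched. No sequences or coordinates are given, and 1 member is not reported by itself here. Counting intervals and floors cover counting error only.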

Additional observations from a re-analysis of the deposited data

Results flagged for a closer look

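Barcodes left out for their mitochondrial share also held UMIs of integrin and laminin genes. In library 1 the 3976 such barcodes held 6797 UMIs of the members, or 461 CPM, against 1124 CPM in kept cells. In library 2 the 407 such barcodes held 1914 UMIs, or 995 CPM, against 1074 CPM in kept cells. They were flagged because they lie outside the measurement reported above. No control barcodes exist for them, and their cell types were not assigned here.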

How the results depend on the processing

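Over the single-cell alternatives no call between gated types reversed except the 5 given here. With a library left out, log2 ratios ranged from -0.26 to 1.44 for lama5 and from -0.080 to 0.44 for itgb2 in skeletal muscle (lower without library 2), from -0.0087 to 0.25 for lamb2 in the epidermis and from -0.41 to 2.91 for itgb1b.1 in leukocytes (lower without library 1). With cells meeting 2 marker lists kept, as in the plan before the later choice to leave them out, itgb4 in glia had -0.25. Dropping the library term (no replicate block) left 170 of 173 calls past the threshold, and 3 were lost (itgb1b.2 and lamc3 in glia, itgb5 in chondrocytes). Calls lost numbered 31 with cells meeting 2 lists kept and 28 with the 20% mitochondrial limit. With 1 more marker 21 were lost and 113 stayed, and the remaining calls of the 173 could not be assessed. They numbered 20 with DESeq2, 14 with no doublet removal, 8 with RLE scaling and 3 with no filter on low counts. Some settings also changed the types in the average. With 1 more marker, both fibroblast types, erythroid cells and pigment cells were too few to enter. Endothelial cells entered with the 20% mitochondrial limit and with cells meeting 2 lists kept. Counts of members moved by over 1.5 times as follows, with the causes not tested. With 1 more marker per gate: pericyte lower 0, smooth muscle lower 1, skeletal muscle lower 4, neuron higher 1, glia lower 5, osteoblast lower 0, tenocyte higher 7, leukocyte lower 3, pericyte over smooth muscle higher 4. With cells meeting 2 lists kept: smooth muscle higher 27, skeletal muscle lower 0, glia higher 2, chondrocyte lower 0, osteoblast higher 5 and lower 3, tenocyte higher 8, fin fold lower 4, leukocyte lower 11, pigment lower 0, pericyte below smooth muscle 12. With DESeq2: skeletal muscle lower 3, epidermis lower 11, neuron lower 18, chondrocyte lower 3, fin fold lower 8. With RLE scaling: skeletal muscle lower 3, neuron higher 1, osteoblast lower 0. With no filter on low counts: neuron higher 4, glia higher 8, chondrocyte lower 0, osteoblast lower 2, leukocyte higher 10. With a 20% mitochondrial limit: skeletal muscle lower 2, osteoblast lower 3, erythroid higher 4 and lower 1, pigment lower 0. With no doublet removal: skeletal muscle lower 4, neuron higher 2, erythroid higher 2. RLE scaling shifted the median of all genes by -0.14 in skeletal muscle, -0.19 in epidermis, -0.11 in chondrocytes, 0.13 in osteoblasts and 0.15 in leukocytes.

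With either single-cell library left out, called members with at least a 2-fold ratio in the called direction numbered 3 to 4 for skeletal muscle higher (6 with both), 6 to 7 for chondrocyte higher (10 with both), 5 to 8 for glia lower and 1 to 2 for fin fold lower. Summed CPM in pericytes averaged 960 for laminin chains and 658 for integrin subunits, and was 1203 and 808 with 1 more marker and 1007 and 640 with the 20% limit. At an adjusted p under 0.01 the authors' deposited table called 3 members. Leaving out each um148 library kept the sign of all 5 called members: lama2 ranged from 4.23 to 4.90, itga11b from 2.81 to 3.08, itga8 from 1.85 to 2.14, lama1 from 1.23 to 2.09 and itgb1b.1 from 0.94 to 1.69. Depth limits lama2, lama1 and itga11b in single cells, and gates of under 100 cells.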
